A study of Mus musculus with 5 samples.

Results

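Tbx2, Tbx3, Tbx5, Vax1 and Vax2 encode transcription factors that divide the early eye into a dorsal and a ventral part. They were chosen by name, as the dorsal T-box genes and the 2 Vax genes, and make up 5 of the 27998 genes in the deposited matrix. Each was described in single cells of the mouse ocular area, first in cells with at least 3 UMIs (unique molecular identifiers, the tags that count captured RNA molecules) of Rax and Lhx2 together, which are eye field transcription factors, and then in the other classes of cells. Of 8194 barcodes, 3653 met that rule, and 3608 of them were left after filters on quality and doublets. They are called gated cells below.

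The samples were wild-type C57BL/6J embryos at 12, 16, 20, 24 and 26 somites, 1 embryo per stage, with no treatment and no mutant. Both optic areas of an embryo were cut out by needle, dissociated with trypsin and captured together by droplet single-cell RNA sequencing with a kit that reads the 3′ ends of transcripts. The matrix holds 5 libraries, numbered 1 to 5 by the suffix of the barcode, and which library is which stage was not given in the sources used here. Each library is therefore described by its number, with no replicate and no order in time. Values are UMI counts, or these as counts-per-million (CPM) of all UMIs of the cells described, and 95% intervals cover counting error only.

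The vertebrate optic vesicle is an outgrowth of the forebrain whose dorsal part receives BMP signals and whose ventral part and stalk receive Sonic hedgehog. Tbx5 and the related Tbx2 and Tbx3 are dorsal genes of the mouse retina, in which BMP4 induces T-box expression. Vax1 and Vax2 are homeobox genes of the ventral optic vesicle, with Vax1 strongest in the optic stalk and Vax2 in the ventral retina, and the absence of both genes in mice turns stalk tissue into retina.

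Members of the same family resemble one another in their coding sequence. The aligned 120 coding bases of highest identity are shown for each family because they contain the bases that tell the members apart, taken from GENCODE M21 transcripts on GRCm38, 5′ to 3′, with capitals at each base that is not the same in all aligned members. The first pair lies in the homeobox of Vax1, at coding bases 328 to 447 of a gene at chr19:59166187-59170056 on the minus strand (ENSMUSG00000006270), and of Vax2, at coding bases 334 to 453 of a gene at chr6:83711264-83738313 on the plus strand (ENSMUSG00000034777).
Vax1: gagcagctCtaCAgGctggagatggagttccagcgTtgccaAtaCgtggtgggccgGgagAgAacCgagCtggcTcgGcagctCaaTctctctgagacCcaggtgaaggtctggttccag
Vax2: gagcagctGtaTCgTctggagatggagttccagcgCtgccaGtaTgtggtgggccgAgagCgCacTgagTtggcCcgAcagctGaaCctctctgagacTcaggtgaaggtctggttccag
These stretches are the same at 103 of 120 bases, or 85.8%, and their longest shared run is 23 bases. The T-box trio lies in the region that encodes the DNA-binding T-box, for Tbx2 at chr11:85832551-85841948 (ENSMUSG00000000093), for Tbx3 at chr5:119670669-119684724 (ENSMUSG00000018604) and for Tbx5 at chr5:119832668-119885219 (ENSMUSG00000018263), all on the plus strand.
Tbx2: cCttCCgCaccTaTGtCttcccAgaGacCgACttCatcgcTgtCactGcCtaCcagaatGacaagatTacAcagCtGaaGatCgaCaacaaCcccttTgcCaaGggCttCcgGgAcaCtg
Tbx3: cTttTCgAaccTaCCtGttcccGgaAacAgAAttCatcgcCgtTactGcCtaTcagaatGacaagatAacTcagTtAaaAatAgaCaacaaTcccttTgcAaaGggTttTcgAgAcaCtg
Tbx5: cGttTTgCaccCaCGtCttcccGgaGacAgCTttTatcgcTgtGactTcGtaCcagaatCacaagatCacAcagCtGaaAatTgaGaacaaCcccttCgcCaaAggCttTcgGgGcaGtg
The 3 stretches are the same at 70% of bases, with 83.3% between Tbx2 and Tbx3, 80.8% between Tbx2 and Tbx5 and 75% between Tbx3 and Tbx5. Of the 481 words of 20 bases in the last 500 bases of each member's annotated transcript, 0 occur in the transcript of another member. For Vax1 those 500 bases are coding sequence, because its transcript in GENCODE M21 has no 3′ untranslated region. All 5 genes lie in single annotated loci, and Tbx3 and Tbx5 are neighbours on chromosome 5.

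The libraries held 1307 to 1996 barcodes, beside the roughly 2000 cells per sample that the labels give, and 41694822 to 72925591 UMIs each. Gated cells numbered 422, 614, 1008, 694 and 870 in libraries 1 to 5, with median depths of 31247, 26201, 36380.5, 32467.5 and 25745.5 UMIs. By clusters computed without the 5 genes, 56.4% of gated cells were optic vesicle-like, 12.8% ventral forebrain-like and 6.26% other forebrain-like, while most of the rest were in clusters left without a name. The optic vesicle-like class had 156 CPM of Rax, 249 CPM of Lhx2 and 233 CPM of Six6, which are among the eye markers that named it. Mesenchyme markers (at least 3 UMIs of Twist1, Prrx1, Prrx2 and Alx1 together) were found in 704 gated cells, or 19.5%, and 40 barcode sequences occurred in 2 or more libraries, which touches 29 gated cells.

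The T-box genes were each found in a minority of gated cells and differed widely between libraries. Tbx2, a T-box repressor of the dorsal eye, measured 0.439, 2.24, 3.97, 10.5 and 15.4 CPM in gated cells of libraries 1 to 5. Tbx5, the T-box activator best known from heart and forelimb, measured 0.586, 1.97, 1.22, 5.73 and 13.5 CPM. Both were highest in library 5 and second in library 4, and the intervals of those libraries did not touch those of libraries 1 to 3 (for Tbx5, 12.1 to 14.9 CPM in library 5 and 4.89 to 6.68 CPM in library 4). Tbx3, a close relative of Tbx2, did not share this order, with 1.90, 27.7, 7.18, 10.1 and 13.6 CPM. Its highest level was in library 2, at 25.3 to 30.2 CPM, above the next library by more than the counting error.

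Vax2 was the most abundant of the 5 genes in libraries 3 to 5, while Tbx3 was higher in libraries 1 and 2. It measured 0.732, 8.54, 12.9, 39.1 and 93.4 CPM in gated cells of libraries 1 to 5, and the share of gated cells with a Vax2 UMI was 1.42%, 12.5%, 24.4%, 38.6% and 60.2%. Each of these levels lies outside the interval of every other library. With each gated cell thinned to 10000 UMIs, which left out 91 shallower cells, the shares were 0.985%, 5.67%, 9.52%, 20.7% and 42.8%, in the same order of libraries. In erythroid-like cells, which should lack the gene and have a deeper median of 42576 UMIs, 2 of 253 cells had a Vax2 UMI. That is 0.791% of these cells, which were not thinned, at 0.184 CPM. The unthinned share of library 1 has an interval of 0.524% to 3.07%, which includes this background. The level of library 1, 0.732 CPM, had an interval of 0.351 to 1.35 CPM. Its optic vesicle-like cells had 2.39 CPM, with a Vax2 UMI in 5.21% of them.

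Vax1 was barely detected. All gated cells together held 51 UMIs in 50 cells, and its level was 0.293, 0.219, 0.252, 0.452 and 0.722 CPM in libraries 1 to 5, with intervals that all overlap. In the GENCODE M21 annotation the Vax1 transcript ends at its stop codon with 0 bases of 3′ untranslated region, against 330 bases for Vax2 and 934 to 1732 bases for the T-box genes, and the RefSeq gene reaches 1707 bases further 3′. Which annotation the reads were counted against was not given in the sources used here, and the part of that missing end in the low count was not tested.

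**Figure D1:**
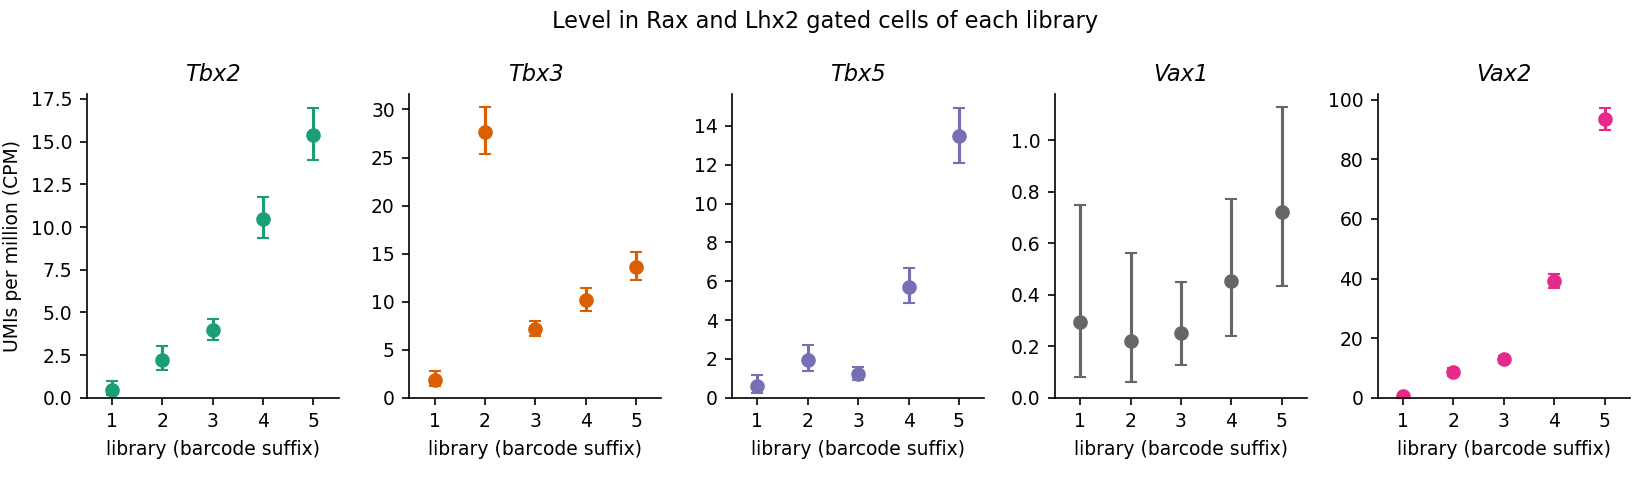
Level of each gene in gated cells (vertical axis, CPM, a separate linear scale per gene) in libraries 1 to 5 (horizontal axis), with exact Poisson 95% intervals that cover counting error only. Tbx2, Tbx5 and Vax2 are highest in library 5 (15.4, 13.5 and 93.4 CPM), Tbx3 is highest in library 2 (27.7 CPM), and the Vax1 intervals overlap.

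Across the larger named classes, Tbx5 and Vax2 had their highest levels in the optic vesicle-like class, whereas Tbx2 and Tbx3 were also found in crest mesenchyme and Tbx3 in ventral forebrain. Tbx5 measured 6.87 CPM in optic vesicle-like cells, with 2.09 to 14.2 CPM over the libraries. It had 0 UMIs in surface ectoderm-like, endothelium-like and head mesoderm-like cells. There the floor of 3 counts makes the pooled optic vesicle-like level at least 30.2-fold, 29.6-fold and 25.4-fold higher. Head mesoderm-like cells numbered 153, 107, 147, 24 and 4 in libraries 1 to 5, so the last fold also compares libraries. In libraries 1 to 3 optic vesicle-like cells had 2.09, 3.17 and 2.19 CPM of Tbx5, against floors of 0.749, 1.25 and 0.741 CPM in head mesoderm-like cells. In the ventral forebrain-like, neural crest-like, erythroid-like and other forebrain-like classes Tbx5 measured 0.273, 0.0991, 0.0919 and 0.0783 CPM, from 5, 5, 1 and 1 UMIs, and these 4 do not differ beyond their counting intervals. The pooled ratio of optic vesicle-like to ventral forebrain-like cells was 25.1 (10.7 to 77.8), but library 5, which has the highest Tbx5 level, held 809 cells of the optic vesicle-like and only 2 of the ventral forebrain-like class. In library 4, which held all 5 ventral forebrain-like UMIs, the levels were 6.20 against 1.33 CPM, and without library 5 the optic vesicle-like level was 3.71 CPM. Myeloid-like cells (26, with 1 Tbx5 UMI) and megakaryocyte-like cells (12, with 0) were too few to place.

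Vax2 measured 47.0 CPM in optic vesicle-like cells, with 2.39 to 97.1 CPM over the libraries, and 25.5 CPM without library 5. In the pooled counts it was 35.8-fold higher (24.0 to 56.0) than in ventral forebrain-like cells, which had 1.31 CPM and 2 cells in library 5. The margin was smaller within library 3, at 19.4 against 1.53 CPM, and within library 4, at 44.6 against 3.72 CPM. Neural crest-like cells had 0.714 CPM, surface ectoderm-like cells 0.682 CPM and erythroid-like cells 0.184 CPM. Optic vesicle-like cells were higher than each named class in every library in which both were present. Vax1 measured 0.467 CPM in optic vesicle-like cells and 0.328 CPM in ventral forebrain-like cells, a ratio of 1.43 with an interval of 0.596 to 4.13, so no difference between these classes was detectable at this depth.

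Tbx2 was highest in 2 of the named classes. Its level was 8.81 CPM in optic vesicle-like cells, with 1.19, 3.26, 5.27, 9.47 and 15.4 CPM in libraries 1 to 5, and 7.04 CPM in neural crest-like cells, with 3.48 to 10.1 CPM over the libraries. The pooled ratio was 1.25 (1.10 to 1.43), but optic vesicle-like cells were the higher class in 1 of 5 libraries, so the order of these neighbours depends on the library. A mixed class left without a name had 10.8 CPM. Surface ectoderm-like cells had 2.20 CPM, which is 4.01-fold lower than optic vesicle-like cells (2.76 to 6.03), and the order held in all 5 libraries. Ventral forebrain-like cells had 0.382 CPM, head mesoderm-like cells 0.180 CPM and erythroid-like cells 0 UMIs.

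Tbx3 had its highest level outside the eye. Optic vesicle-like cells had 8.22 CPM (4.18 to 13.6 CPM over the libraries), against 34.4 CPM in ventral forebrain-like cells, where the 4 libraries with enough cells spanned 2.14 to 56.7 CPM, and 16.3 CPM in neural crest-like cells (7.01 to 30.1 CPM). Optic vesicle-like cells were 4.19-fold lower than ventral forebrain-like cells (3.75 to 4.68) and lower in 3 of 4 libraries. They were 1.98-fold lower than neural crest-like cells (1.78 to 2.20) and lower in 4 of 5 libraries. Endothelium-like cells, at 6.80 CPM, did not differ from optic vesicle-like cells beyond counting error (ratio 1.21, 0.966 to 1.53). Erythroid-like cells had 0.367 CPM.

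**Figure D2:**
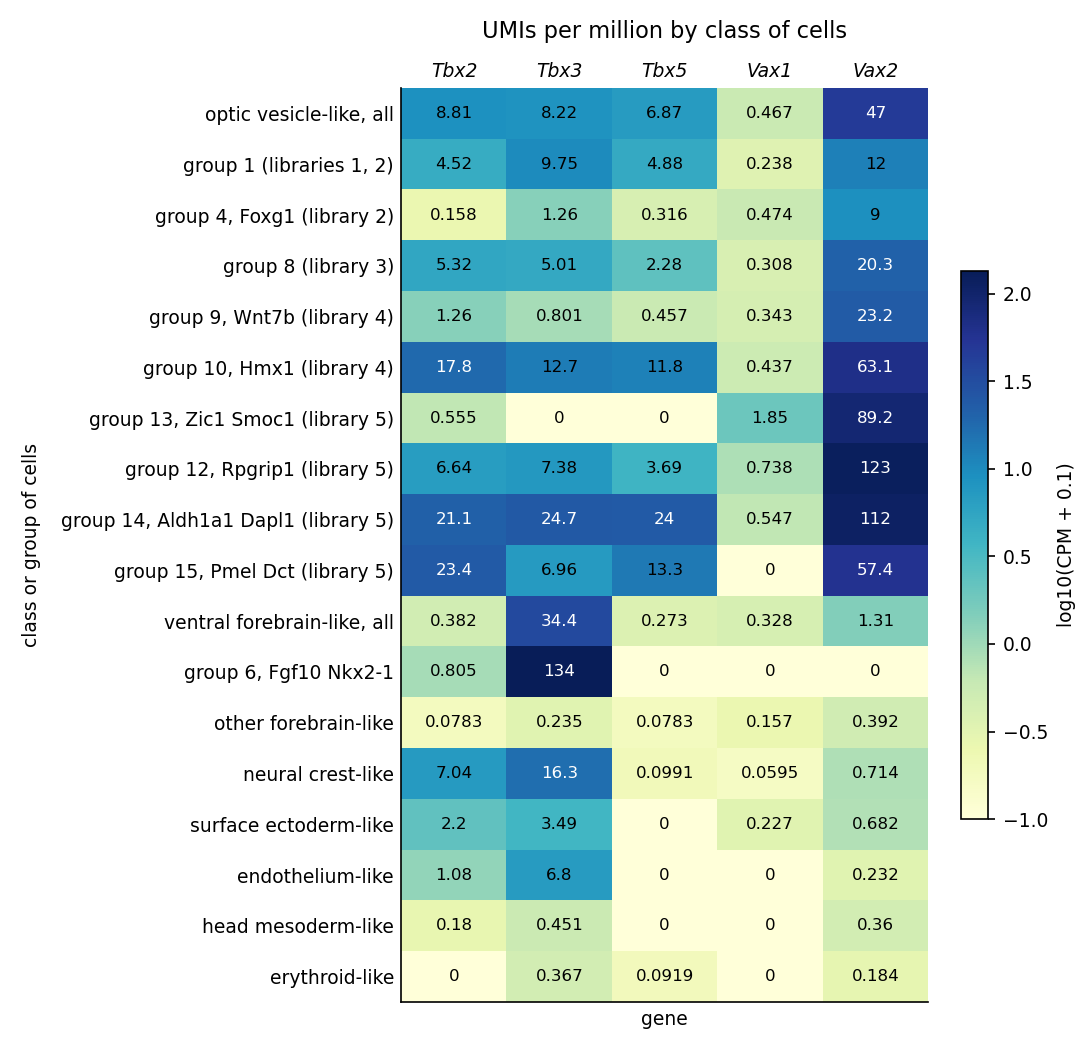
Level in CPM of each gene (columns) in classes and groups of cells (rows, with the library that holds most cells of a group in brackets); the number in a field is the CPM and the colour its log10 after adding 0.1. Group 6 of the ventral forebrain-like class has 134 CPM of Tbx3 beside 0 UMIs of Tbx5 and Vax2, and group 13 has 89.2 CPM of Vax2 beside 0 UMIs of Tbx3 and Tbx5.

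The Tbx3 of the ventral forebrain was concentrated in 1 group of 137 cells, group 6 in the map of classes, where 72.3% of cells had a Tbx3 UMI and the level was 134 CPM. These 501 UMIs came with 94.4 CPM of Shh, 170 CPM of Nkx2-1 and 62.5 CPM of Fgf10, genes of the ventral hypothalamic forebrain, with 53.1 CPM of Bmp4, and with 0 UMIs of Tbx5, Vax1 and Vax2. The cells were 57 of library 2, at 242 CPM of Tbx3, 72 of library 3, at 63.5 CPM, 7 of library 4 and 1 of library 1. Other ventral forebrain-like groups had 13.3, 10.1 and 3.32 CPM of Tbx3. Nkx2-1 and Shh, which are among the markers that named the class, were not particular to group 6. Groups 7, 5 and 0 had 142, 146 and 166 CPM of Nkx2-1 and 129, 59.0 and 82.0 CPM of Shh. Fgf10 (5.80, 2.02 and 1.40 CPM) and Bmp4 (2.82, 8.89 and 15.2 CPM) were lower in those groups than in group 6. Tbx3, Shh, Nkx2-1 and Bmp4 did not enter the clustering that formed group 6, whereas Fgf10 did.

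Group 6 cells carry Rax and Lhx2 and so were among the gated cells. Gated cells with a Nkx2-1 UMI had 22.1 CPM of Tbx3, against 8.11 CPM in gated cells without one. Vax2 had 8.04 CPM in gated cells with Nkx2-1, against 40.9 CPM without, Tbx5 had 1.06 against 5.87 CPM and Tbx2 had 2.88 against 8.42 CPM, while Vax1 had 0.384 against 0.392 CPM. In library 2 the Tbx3 contrast was 57.0 CPM in Nkx2-1-positive gated cells against 8.28 CPM in negative ones. Library 2 had 2.88 against 12.3 CPM of Vax2, 0.274 against 3.09 CPM of Tbx5 and 0.686 against 3.28 CPM of Tbx2. In library 5, which is highest in these 3 genes, only 2 gated cells had a Nkx2-1 UMI, and neither had Tbx3, so the pooled values also compare libraries. The share of cells with Nkx2-1 was 31.8% of Tbx3-positive against 20.4% of Tbx3-negative gated cells, 11.6% of Tbx2-positive against 23.9% of Tbx2-negative, 7.27% of Tbx5-positive against 23.5% of Tbx5-negative and 8.03% of Vax2-positive against 28.7% of Vax2-negative cells. For Vax1 it was 24% of positive against 22.2% of negative cells.

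The T-box genes were found in the same cells as one another more often than their shares give, and Tbx5 was found with Vax2 less often. For each pair, the number of gated cells with at least 1 UMI of both was set beside the number from the product of the 2 shares, computed within each library and summed. Tbx2 and Tbx5 were together in 185 cells, 3.67 times (3.16 to 4.24) the 50.4 cells from the product. Tbx3 and Tbx5 were together in 169 cells, 3.21 times (2.74 to 3.73) the product, and Tbx2 and Tbx3 in 233 cells, 2.63 times (2.31 to 2.99). All 3 pairs exceeded the product in each of the 5 libraries, from 2.44 times for Tbx2 and Tbx3 in library 5 upwards. In library 1 this rests on 1 cell each for Tbx2 with Tbx3 and Tbx2 with Tbx5, and on 3 cells for Tbx3 with Tbx5. The products there were 0.242, 0.0995 and 0.282, so a single cell exceeds them. In all, 129 gated cells held all 3 genes.

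Tbx5 and Vax2 were together in 75 gated cells, 0.603 times (0.475 to 0.756) the 124 from the product. The 2 genes shared 0, 0, 6, 23 and 46 cells in libraries 1 to 5, where the products were 0.0995, 2.13, 8.05, 30.9 and 83.1. Each observed number lies below its product, by the widest margin in library 5, which had the most cells of both genes. With so small a product, library 1 could hardly show any number but 0, and libraries 2 and 3 rest on few cells. The ratio was 0.745, 0.744 and 0.553 in libraries 3 to 5, and intervals were not computed for single libraries. Levels gave the same picture: Tbx5-positive gated cells had 5.49, 20.6 and 36.8 CPM of Vax2 in libraries 3 to 5, against 13.2, 43.0 and 109 CPM in the rest, although the Tbx5-positive cells were the deeper ones (55479, 50223 and 33086 UMIs in the median, against 35645, 31556 and 24687).

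The other T-box genes were less separate from Vax2. Tbx3 and Vax2 were together in 167 gated cells, 0.786 times the product (0.671 to 0.914), with 0.264 times in library 2 and 1.01 times in library 4. In library 2, 82 of the 121 Tbx3-positive gated cells had a Nkx2-1 UMI, and the part of these cells in the ratio was not tested. Tbx2 and Vax2 were together in 188 cells, 0.948 times the product (0.818 to 1.09), which counting error does not separate from 1, with 0.760 times in library 5. Without library 5 this ratio was 1.2. Vax1 and Vax2 were together in 28 cells, 1.47 times the product (0.974 to 2.12, an interval that includes 1). In library 5 17 of the 18 Vax1-positive gated cells also had Vax2, as did 59.5% of the rest, which were shallower (25618.5 against 35826.5 UMIs in the median). With each T-box gene Vax1 shared 5 to 9 cells, and the intervals of those ratios all span 1.

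Depth bears on these numbers, since a deep cell shows more genes of any kind. After thinning each gated cell to 10000 UMIs, Tbx5 and Vax2 were together in 12 cells, 0.317 times the product (0.164 to 0.554), Tbx3 and Vax2 in 26, 0.482 times (0.315 to 0.706), and Tbx2 and Vax2 in 23, 0.499 times (0.316 to 0.749). The T-box pairs had 2.65 to 3.84 times the product in the thinned cells. Vax1 and Vax2 were together in 6 thinned cells, 0.970 times the product (0.356 to 2.11). Within optic vesicle-like cells alone, whether gated or not, the ratio of Tbx5 and Vax2 was 0.490 (57 cells; 0.371 to 0.635), of Tbx3 and Vax2 0.815 and of Tbx2 and Vax2 0.834. These last values are from cells that were not thinned, so they and the thinned values differ in both depth and cells.

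**Figure D3:**
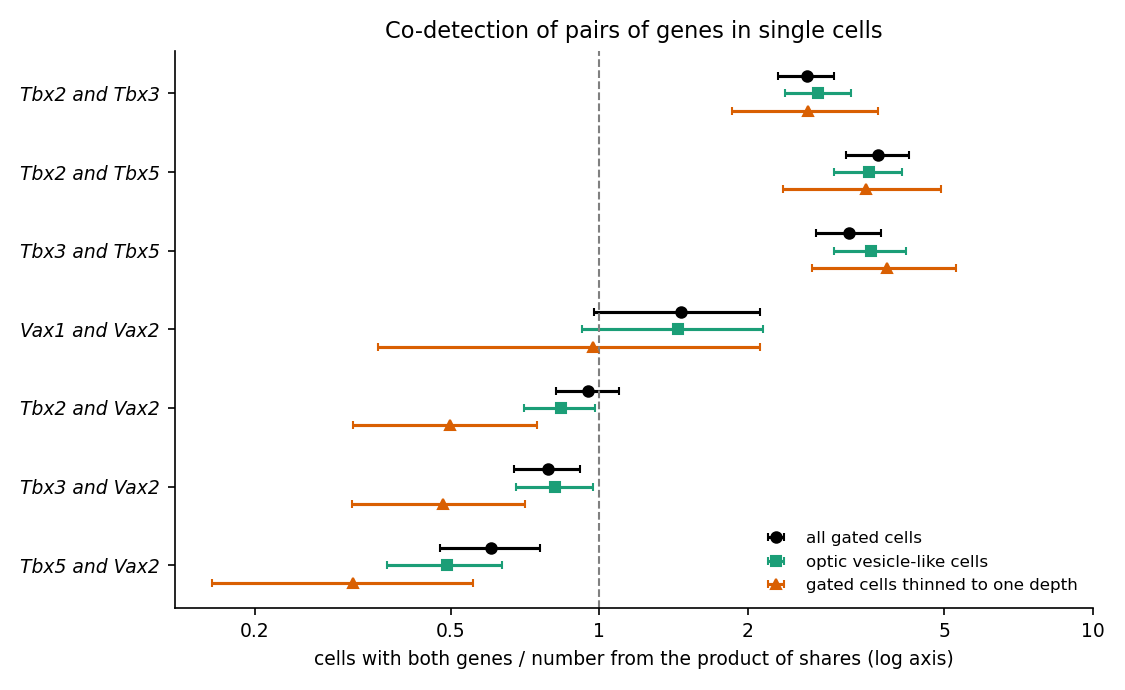
Number of cells with both genes of a pair, divided by the number from the product of their shares within libraries (horizontal log axis), for all gated cells, optic vesicle-like cells and gated cells thinned to 10000 UMIs, with Poisson 95% intervals for counting error; the dashed line is 1. The 3 pairs of T-box genes lie above 2, and Tbx5 with Vax2 lies below 1 in all 3 sets of cells (0.603, 0.490 and 0.317).

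Over all libraries Vax2 was lower, but present, in cells with Tbx5. Optic vesicle-like cells with 0, 1, 2 and 3 or more Tbx5 UMIs (1930, 108, 59 and 72 cells) had 50.7, 26.7, 19.6 and 19.4 CPM of Vax2. In library 5 the same bins had 114, 49.3, 34.2 and 25.6 CPM, and in library 4 they had 49.2, 27.1, 4.59 and 9.63 CPM. Cells without Tbx5 were highest in Vax2 in libraries 2 to 5, although the bin of 3 or more in library 3 holds only 4 cells and its interval overlaps that of the bin at 0. In library 2 the 17 optic vesicle-like cells with Tbx5 had 0 Vax2 UMIs, against 14.2 CPM in the 323 cells without Tbx5.

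Over the same bins the other T-box genes ran the opposite way. Tbx2 had 4.38, 24.6, 35.6 and 57.5 CPM, and Tbx3 4.07, 19.0, 33.1 and 59.2 CPM, in cells with 0, 1, 2 and 3 or more Tbx5 UMIs. Binned by Vax2 instead, cells with 0, 1, 2 and 3 or more Vax2 UMIs had 10.3, 4.81, 2.72 and 2.88 CPM of Tbx5. The same cells had 32.5, 53.2, 58.7 and 82.1 CPM of Pax2, a paired-domain gene of the optic stalk and ventral retina. In library 5 the Tbx5 values were 31.6, 13.5, 5.35 and 4.28 CPM.

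**Figure D4:**
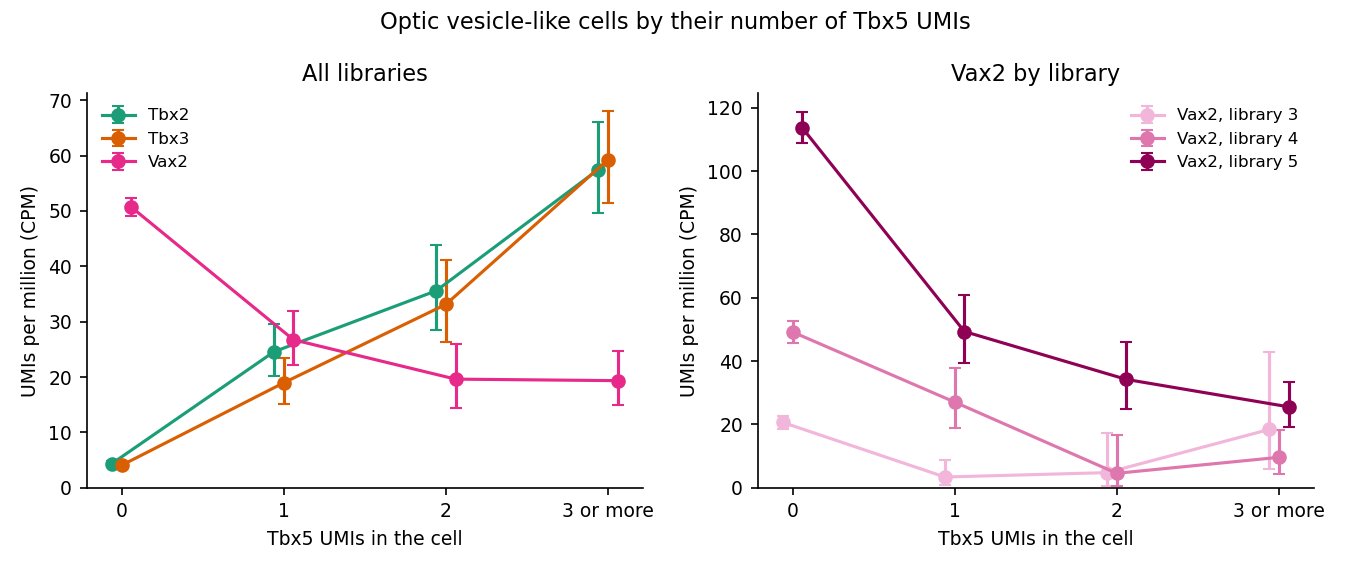
Left, level of Tbx2, Tbx3 and Vax2 (CPM) in optic vesicle-like cells with 0, 1, 2 and 3 or more Tbx5 UMIs, all libraries together; right, Vax2 in libraries 3, 4 and 5; bars are Poisson 95% intervals for counting error. Pooled Tbx2 and Tbx3 are higher in each next bin, and pooled Vax2 is highest at 0 Tbx5 UMIs and level in the last bins (19.6 and 19.4 CPM). In library 4 those bins have 4.59 and 9.63 CPM of Vax2, and 4 cells stand behind the last point of library 3.

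The 75 gated cells with both Tbx5 and Vax2 had intermediate levels of several dorsal genes. They had 198 CPM of Aldh1a1, which encodes a retinaldehyde dehydrogenase, against 355 CPM in cells with Tbx5 alone and 10.1 CPM in cells with Vax2 alone. They had 30.8 CPM of Tbx2, against 41.0 CPM with Tbx5 alone and 4.35 CPM with Vax2 alone. Their Tbx5 level was 31.2 CPM, against 55.4 CPM in the cells with Tbx5 alone, and their Vax2 level 57.5 CPM, against 90.5 CPM in the cells with Vax2 alone. They had a median of 67699 UMIs, against 34737.5 UMIs in Tbx5-only and 33823.5 UMIs in Vax2-only cells. All these cells were chosen by at least 1 UMI of Tbx5 or Vax2, which raises the CPM of that gene more in shallower cells. The Tbx5 and Vax2 levels therefore cannot show whether the 75 cells express less of either gene. Only 16 of the 75 cells had 3 or more UMIs of both genes. All 75 were in libraries 3 to 5, where doublets may remain because few were marked, and the part of doublets in the overlap was not tested. Mesenchyme, ectoderm or endothelium markers were found in 66.7% of these cells, against 53% of Tbx5-only and 26.2% of Vax2-only cells, and their part in the overlap was not tested. Without all gated cells that carry such markers, the ratio of Tbx5 and Vax2 was 0.448.

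Several single groups of optic vesicle-like cells had both T-box genes and Vax2 in their summed levels, which does not place them in the same cells. Most groups come from 1 library and so may reflect that library. In library 5, group 14 (287 cells, named here by Aldh1a1 and Dapl1) had 24.7 CPM of Tbx3, 24.0 CPM of Tbx5 and 21.1 CPM of Tbx2 beside 112 CPM of Vax2. Group 15 (157 cells with the pigment cell genes Pmel and Dct) had 23.4 CPM of Tbx2, 13.3 CPM of Tbx5 and 6.96 CPM of Tbx3 beside 57.4 CPM of Vax2. Within each of these groups Tbx5 and Vax2 were together less often than the product, 0.506 times in group 14 (29 cells; 0.339 to 0.727) and 0.521 times in group 15 (7 cells; 0.209 to 1.07, an interval that includes 1). In group 14 the ratio was 1.29 for Tbx2 and Tbx3 (0.991 to 1.65, an interval that includes 1), 1.59 for Tbx3 and Tbx5 (1.23 to 2.03) and 1.87 for Tbx2 and Tbx5 (1.44 to 2.37).

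Group 13, of 208 cells and almost all of library 5, had Vax2 with almost no T-box UMIs. It had Vax2 in 69.2% of cells, at 89.2 CPM, with 0 UMIs of Tbx3 and Tbx5, 3 UMIs of Tbx2 and 10 UMIs of Vax1. That Vax1 level, 1.85 CPM, was the highest of any group with libraries pooled. Its interval in library 5 (0.890 to 3.41 CPM) overlaps that of group 14 (0.201 to 1.19 CPM). In library 4, group 7 had 2.41 CPM of Vax1 from 4 UMIs. Group 13 cells had 134 CPM of Pax2 and 38.3 CPM of Smoc1, a secreted BMP pathway modulator. In library 4 a pair of groups differed in the same direction for the T-box genes and Vax2. Group 10 (222 cells, led by Hmx1) had 17.8 CPM of Tbx2, 12.7 CPM of Tbx3, 11.8 CPM of Tbx5 and 63.1 CPM of Vax2, while group 9 (227 cells, led by Dmrta2 and Wnt7b) had 1.26, 0.801, 0.457 and 23.2 CPM. In group 10, Tbx5 and Vax2 were together in 10 cells, 0.357 times the product (0.171 to 0.657). Vax2 with few T-box UMIs was also seen in group 4, mostly of library 2, at 9 CPM of Vax2 beside 0.158, 1.26 and 0.316 CPM of Tbx2, Tbx3 and Tbx5.

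The 200 gated cells with Tbx5 and no Vax2 were then compared with the 1046 gated cells with Vax2 and no Tbx5. The sides are named by these 2 genes only, and Vax2 was also high where T-box genes were, at 112 CPM in group 14 of library 5. A gene was called where its summed CPM differed at least 2-fold with 5 CPM added to both sides, reached 20 CPM on the higher side and lay in the same direction in each of libraries 3, 4 and 5, the libraries with at least 20 cells on both sides. There is no replicate behind any library, so the calls rest on size and direction and carry no p-value. Of 5056 genes tested, 33 were called higher in Tbx5-positive cells, or 0.653%, and 10 lower, or 0.198%, counts that include Tbx5 and Vax2 themselves, which chose the cells.

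The largest difference was in Aldh1a1, the retinaldehyde dehydrogenase of the dorsal retina. It measured 14.2, 116 and 883 CPM in Tbx5-positive cells of libraries 3, 4 and 5, against 1.81, 6.64 and 22.2 CPM in Vax2-positive cells, and 355 against 10.1 CPM over all libraries, 35.2-fold higher (31.9 to 39.0). Tbx5-positive cells were higher in each library, by a margin that differed several-fold between libraries. Aldh1a7, a close paralogue whose reads may not be separable from those of Aldh1a1, was 17.1-fold higher, at 137 against 7.98 CPM.

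Bmp4, a ligand known to induce dorsal eye fate, was also higher. It measured 51.5, 60.7 and 109 CPM in Tbx5-positive cells of libraries 3 to 5, against 6.26, 6.73 and 14.8 CPM in Vax2-positive cells, with a pooled ratio of 8.61 (7.58 to 9.78). The groups did not overlap, and the lowest Tbx5-positive library was above the highest Vax2-positive one. Tbx3 was 10.1-fold higher (41.9 against 4.15 CPM) and Tbx2 9.43-fold higher (41.0 against 4.35 CPM).

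The other 5 genes at the top of the higher calls were Msx2, a homeobox target of BMP signalling, 9.56-fold higher at 21 against 2.20 CPM; Wfikkn1, a secreted binder of growth factors of the TGF-beta family, 6.03-fold higher at 59.8 against 9.92 CPM; Unc5b, a netrin receptor, 5.33-fold higher at 172 against 32.2 CPM; Dkk1, a secreted WNT inhibitor, 4.90-fold higher at 79.6 against 16.2 CPM; and Krt18, a keratin of simple epithelia, 4.77-fold higher at 47.9 against 10.0 CPM. Each was higher in all 3 libraries. Msx2 lies close to the minimum of 20 CPM and was not called when library 2 was left out.

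Of the 10 genes called lower in Tbx5-positive cells, 9 were genes other than Vax2. Wnt7b, a WNT ligand, had 5.13 CPM in Tbx5-positive and 35.1 CPM in Vax2-positive cells, 6.84-fold lower (5.02 to 9.57). Vwc2, which encodes the secreted BMP antagonist brorin, had 2.50 against 21.8 CPM, 8.71-fold lower (5.61 to 14.3). The insulin receptor substrate gene Irs4 had 14.5 against 55.4 CPM, the insulin-like growth factor binding protein gene Igfbp5 16.9 against 58.6 CPM and the imprinted gene Dlk1 94.2 against 280 CPM. The last of these differed most in library 5, with 26.6 against 299 CPM, and least in library 3, with 152 against 250 CPM.

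The remaining lower calls were 4 transcription factor genes of the anterior neural plate and forebrain. Dmrta2 had 11.8 against 36.6 CPM, Sox3 12.4 against 38.3 CPM, Nr2e1 21.1 against 53.4 CPM and Zic1 19.3 against 45.1 CPM. Zic1 was 2.34-fold lower but close to the threshold, and it was almost level in library 3, with 11.9 against 13.2 CPM. Without library 5, Zic1, Nr2e1, Sox3 and Vwc2 no longer met the rule, and 24 of the 33 higher and 6 of the 10 lower calls were shared. Within optic vesicle-like cells only, all 33 higher and all 10 lower calls were made again, among 39 and 14 calls, or 0.764% and 0.274% of 5104 genes. Most cells were the same, since 175 of the 200 Tbx5-positive and 850 of the 1046 Vax2-positive cells were optic vesicle-like. This repeat is therefore no independent support, and its counts again include Tbx5 and Vax2.

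**Figure D5:**
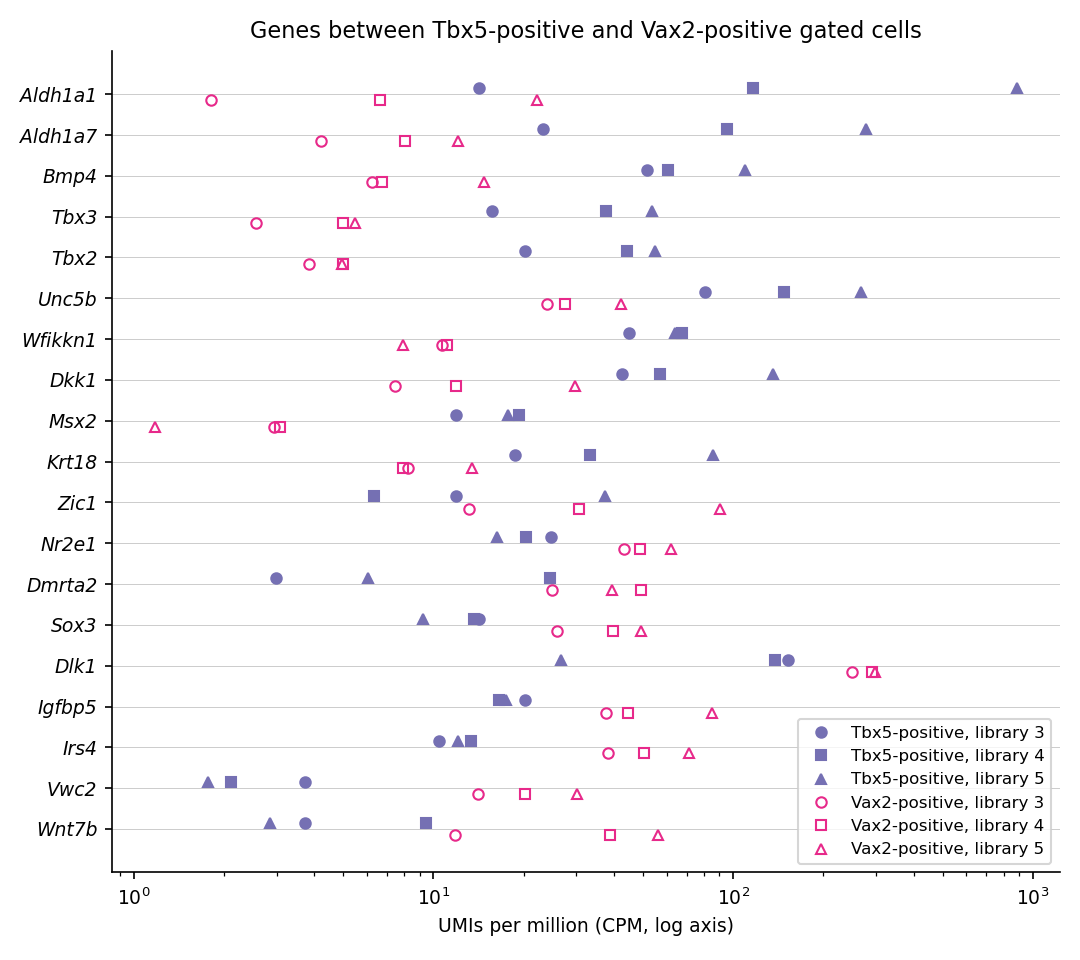
Summed level (horizontal log axis, CPM) of the 10 called genes with the highest and the 9 with the lowest ratio, in Tbx5-positive (filled) and Vax2-positive (open) gated cells of libraries 3, 4 and 5. In each library the filled symbol lies to the right of the open one for the upper 10 genes and to the left for the lower 9, for Aldh1a1 at 883 against 22.2 CPM in library 5.

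Other-type markers differed between the sides. Their 8 genes summed to 88.1, 182 and 97.4 CPM in Tbx5-positive cells of libraries 3 to 5, against 79.5, 92.8 and 64.9 CPM in Vax2-positive cells, with 647 CPM in neural crest-like cells. Prrx2 made up most of it, at 85.9 against 38.2 CPM, while Twist1 (5.88 against 6.28 CPM) and Prrx1 (7.38 against 7.43 CPM) were nearly level. The endothelium markers Kdr and Cdh5 had 6.76 against 13.4 CPM and 0.751 against 0.476 CPM. The ectoderm marker Cdh1 had 0 UMIs in Tbx5-positive and 0.295 CPM in Vax2-positive cells, too few to compare. Another ectoderm marker, Epcam, had 6.26 against 2.95 CPM, with 13.5 against 3.99 CPM in library 5, and the mesenchyme marker Alx1 had 11.3 against 6.68 CPM. Without the gated cells that carry 3 or more UMIs of such markers, 29 of the 33 higher and 9 of the 10 lower calls were made again.

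By gene list, the BMP pathway had 5 of its 12 tested genes called higher, beside 0.653% of all genes, and 0 lower, from 22 listed, with a median ratio of 1.59 against 1.02 over all genes tested (5 CPM added). The 5 were Bmp4, Msx2, Id1 (194 against 63.6 CPM), Id3 (1269 against 456 CPM) and Bambi (31.7 against 10.7 CPM). The Id genes are direct targets of BMP signalling, and Bambi is a decoy receptor. Id2 (426 against 278 CPM), Smad7 (20.8 against 10.5 CPM) and the receptor gene Bmpr1a (32.5 against 31.5 CPM) were not called. Bambi was not called without library 5, nor without the cells with Nkx2-1.

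Of 7 listed dorsal eye genes, 5 were tested and 4 called higher, namely Aldh1a1, Bmp4, Id1 and Id3, and several of these also stand in the BMP list. The ephrin gene Efnb2, at 31.9 against 14.4 CPM, was higher in 2 of 3 libraries and was not called. Of 8 listed ventral eye genes, 3 were tested and 0 called: Pax2 had 42.2 against 62.0 CPM, Aldh1a3 150 against 143 CPM and the ephrin receptor gene Ephb2 25.1 against 35.9 CPM. Below the minimum of 20 CPM, Smoc1 had 1 against 12.1 CPM and Ntn1, which encodes netrin, 1.75 against 13.7 CPM, both lower in all 3 libraries. Cyp1b1, a cytochrome gene that is also in the ventral list, had 13.4 against 1.63 CPM and was higher in 2 of 3 libraries. The counts of calls in the dorsal list stand beside a share of 0.653% of all genes, and its genes were listed because they are known dorsal genes.

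Hedgehog genes were divided. Of 13 listed, 5 were tested, with a median ratio of 1.02, the same as over all genes. The Hedgehog co-receptor genes Gas1 (113 against 46.5 CPM) and Cdon (38.8 against 14 CPM) were called higher, whereas the pathway target Ptch1 had 18.4 against 27.6 CPM and was not called. Of 8 pigment epithelium and 7 neural retina genes, 5 and 4 were tested and 0 called. Otx1 had 53.9 against 25.0 CPM and Fgf15 95 against 50.9 CPM, both higher in 3 of 3 libraries and short of 2-fold with 5 CPM added. In the retinoic acid list 1 of 4 tested genes was called, Aldh1a1. The background for these counts is again 0.653% of genes called higher, and the lists were chosen with earlier results of these data known.

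Each member was also set against gated cells without it, a contrast in which cells with the gene are also deeper (for Tbx2, a median of 46173 against 28858 UMIs). For Tbx2, library 1 held 6 positive and 416 negative cells, and library 5 held 188 and 682. Pooled levels in these contrasts therefore also compare libraries. Each count of higher calls for Tbx2 and Tbx3 includes the member itself, which chose the cells, and the leading genes are given without it. Between Tbx2-positive and Tbx2-negative cells 21 of 5014 genes were called higher, or 0.419%, and 9 lower, or 0.179%, the higher ones led by Aldh1a1 (148 against 14.4 CPM), Aldh1a7, Unc5b (99.9 against 20.4 CPM) and Hmx1 (38.8 against 9.11 CPM), a homeobox gene of the retina. Nkx2-1, at 8.10 against 29.8 CPM, was among the lower ones. Between Tbx3-positive and Tbx3-negative cells 17 of 5006 genes were called higher, or 0.34%, and 0 lower, again led by Aldh1a1 (126 against 17.3 CPM). The embryonic globin gene Hbb-bh1, at 261 against 55.1 CPM, stood next among them, and its part in this contrast was not tested. Within optic vesicle-like cells, 17 of 5019 genes were called higher, or 0.339%, and 4 lower, or 0.0797%, between Tbx2-positive and Tbx2-negative cells, with Tbx5 at 22.0 against 2.48 CPM and Tbx3 at 22.5 against 4.07 CPM. Between Tbx3-positive and Tbx3-negative optic vesicle-like cells, 19 of 5005 genes were called higher, or 0.38%, and 2 lower, or 0.04%, with Tbx5 at 25.5 against 2.29 CPM and Tbx2 at 25.9 against 4.61 CPM. Dlk1 and Fezf1, a zinc finger gene of the forebrain, were called lower in both contrasts.

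Between Tbx5-positive and Tbx5-negative cells 37 of 5080 genes were called higher, or 0.728%, and 12 lower, or 0.236%. Between Vax2-positive and Vax2-negative cells 5 of 4997 genes were called higher, or 0.1%, and 8 lower, or 0.16%. The higher calls of both contrasts include the gene that chose the cells, Tbx5 or Vax2. Library 5 held 524 of the 1121 Vax2-positive but 346 of the 2487 Vax2-negative cells, and library 1 held 6 and 416. The pooled levels therefore also compare libraries, although each call had the same direction in all 4 libraries used. Vax2-positive cells were higher in Aldh1a3, the retinaldehyde dehydrogenase of ventral retina and pigment epithelium (148 against 49.0 CPM), Pax2 (61.9 against 19.1 CPM), the collagen gene Col9a1 (111 against 41.3 CPM) and Pdzrn3 (31.0 against 10.9 CPM). The 8 genes called lower were Nkx2-1 (4.81 against 38.4 CPM), Lhx5 (9.50 against 40.7 CPM), Nkx2-9 (6.4 against 30 CPM), Emx2 (4.31 against 23.5 CPM), Hes5 (9.78 against 37.8 CPM), Ifitm1 (11.7 against 32.6 CPM), Gpc3 (30.6 against 69.5 CPM) and Sall3 (10.3 against 25.8 CPM). For Vax1 no library had 20 positive gated cells, so 0 of 5008 genes could be called, a share of 0%.

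The genes whose detection was most like that of each member, across thinned gated cells within libraries, divided in a similar way. For Tbx5, over libraries 4 and 5 and 112 positive cells, the highest mean correlations were with Aldh1a1 (0.365), Aldh1a7 (0.317), Bmp4 (0.290), Dkk1 (0.287) and Unc5b (0.287), and Tbx3 followed at 0.222. The lowest were with Dlk1 (−0.203), Ccnd2 (−0.156), Wnt7b (−0.130), Nhp2l1 (−0.121) and Vax2 (−0.112), so that Vax2 was the fifth lowest of 8404 genes. For Tbx2, over libraries 3 to 5, they were Aldh1a1 (0.254), Aldh1a7 (0.215), Bmp4 (0.2), Unc5b (0.196) and Hmx1 (0.161), and at the low end Map1b, Dlk1, Ccnd2, Irs4 and Igfbp5, down to −0.134.

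Tbx3, over libraries 2 to 5, was most like Bmp4 (0.202), Id1 (0.197), Dkk1 (0.181), 3632451O06Rik (0.159) and Scube1 (0.139), with Nkx2-1 sixth at 0.138, and least like Nr2f1 (−0.140), Nr2e1, Pax6, Dmrta2 and Irs4. Vax2, over the same libraries, was most like Shisa2 (0.161), Pax2 (0.157), Aldh1a3 (0.153), Maob (0.149) and Phlda1 (0.147), and least like Nkx2-1 (−0.135), Cdkn1c, Vim, Lhx5 and Gpc3. For Vax1 only library 5 could be used. These correlations are over cells that share a library and are weak, as sparse counts make them, and they describe these cells only.

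Among the other T-box genes, Tbx20, which is best known from the heart, had most of its UMIs in the optic vesicle-like class. Of its 252 UMIs in all kept cells, 205 were in optic vesicle-like cells, at 2.59 CPM. It had 8.76 CPM in Tbx5-positive against 1.40 CPM in Vax2-positive gated cells, higher in 3 of 3 libraries but below the minimum of 20 CPM. Tbx6 had 25 of 49 UMIs in optic vesicle-like cells, at 0.316 CPM. Among the larger classes, Tbx1 was highest in endothelium-like cells at 34.3 CPM, Tbx18 in head mesoderm-like cells at 14.1 CPM and T in surface ectoderm-like cells at 9.48 CPM.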

How the data were processed

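The deposited matrix holds UMI counts per gene and cell barcode, not normalized. Per the submitters' processing notes it was made with Cell Ranger, and those notes name mm10 and GRCm38; versions and the gene annotation were not given in the sources used here. Barcodes carry suffixes 1 to 5 that no label ties to the 5 stages, so libraries were neither grouped nor tested, and each stage is 1 embryo.

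Barcodes under 1000 detected genes or over 10% mitochondrial UMIs (22 in all) were left out. Scrublet, at an expected rate of 6%, removed 66 doublets, from 0.403% to 1.46% per library. In libraries 3 to 5 it marked at most 0.516% of barcodes, so doublets may remain there. Cells were normalized to 10000 UMIs and clustered with Leiden in scanpy 1.11.5 (2000 variable genes, 30 components, 15 neighbours, resolution 1), leaving out the 5 genes and the dorsal, ventral, BMP and Hedgehog lists. Classes were named from fixed marker lists by scoring rules set after the data were seen, with neural cells clustered again and optic vesicle-like groups named against non-neural cells. Clusters with under 1000 CPM of Malat1, under 3 detected markers or mixed markers stayed unnamed, and rebuilt names may differ from the study's own.

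Levels were computed here as summed UMIs over summed totals. Exact Poisson, Clopper-Pearson and conditional 95% intervals were computed with scipy 1.17.1, and the upper limit at 0 used 3 counts. Genes were named by a fixed rule: in the comparison of Tbx5-positive with Vax2-positive cells, the 10 called genes with the largest ratio (5 CPM added) in each direction and the list genes, and elsewhere the members and the 5 genes with the highest and the 5 with the lowest correlation. Genes named in other contrasts, and examples among genes not called, were chosen after their values were seen. Correlations used cells thinned to 10000 UMIs and genes found in at least 5% of them, in libraries with at least 10 positive cells. The steps that count pairs and call genes were tested on simulated data. The members and lists were chosen with earlier results of these data known. Sequences and gene positions came from GENCODE M21 on GRCm38 and RefSeq.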

Additional observations from a re-analysis of the deposited data

How the results depend on the processing

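No paired analysis was possible because each stage is 1 embryo and no test was made. Over the settings run, the 3 T-box pairs stayed above 1 and Tbx5 and Tbx3 with Vax2 below 1, while Tbx2 with Vax2 and the 4 pairs that include Vax1 crossed it. Each ratio is the number of cells with both genes over the product of their shares. With detection at 2 UMIs it was 4.07 for Tbx2 and Tbx3, 6.14 for Tbx2 and Tbx5 and 5.31 for Tbx3 and Tbx5. Thinned to 10000 UMIs it was 3.84 for Tbx3 and Tbx5, 0.317 for Tbx5 and Vax2, 0.482 for Tbx3 and Vax2 and 0.499 for Tbx2 and Vax2, the last of which was 0.808 in gated optic vesicle-like cells. Without other-type markers it was 4.40 for Tbx2 and Tbx5, 0.638 for Tbx3 and Vax2 and 0.448 for Tbx5 and Vax2. Leaving out 1 library at a time gave 3.51 to 4.36 for Tbx2 and Tbx5 and 0.873 to 1.2 for Tbx2 and Vax2, above 1 without library 5 only.

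Levels in optic vesicle-like cells with libraries weighted equally were 6.91 CPM for Tbx2, 7.27 CPM for Tbx3, 5.58 CPM for Tbx5 and 35.4 CPM for Vax2. At clustering resolution 2 they were 9.87, 9.19, 7.78 and 52.2 CPM. Over a total without ribosomal, mitochondrial and haemoglobin genes they were 13.4, 12.5, 10.4 and 71.4 CPM, with 0.710 CPM for Vax1, since that total is smaller. Leaving out 1 library at a time gave 6.00 to 10.2 CPM for Tbx2, 5.91 to 9.48 CPM for Tbx3, 3.71 to 8.71 CPM for Tbx5, 0.343 to 0.545 CPM for Vax1 and 25.5 to 57.8 CPM for Vax2, each lowest without library 5.

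Between Tbx5-positive and Vax2-positive cells, leaving out 1 library at a time gave 29 to 38 higher and 7 to 16 lower calls, with 16 lower calls without library 3. Other settings gave 26 higher calls (libraries weighted equally) to 46 (no minimum level) and 9 (gate at 6 UMIs) to 15 lower calls. Zic1 was not called under 5 settings, among them a gate at 6 UMIs. For why these calls were lost, the cause was not tested. Counting every optic vesicle-like cell, gated or not, was chosen after seeing the data. Vax1 had 51 UMIs in gated cells, so its level and the pairs that include it have wide counting intervals.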
